A study of Drosophila melanogaster with 42 samples.

Results

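The oxidative phosphorylation genes of whole female Drosophila melanogaster were read across 14 groups of 3 arrays each, at 10 and 40 days of age. Members were all genes with a probeset naming them alone whose symbol begins with ND-, Sdh, UQCR, COX or ATPsyn, which gave 73 of the 11982 genes so named. They fell into complex I (32 genes), complex II (7 genes), complex III (6 genes), complex IV (14 genes) and complex V (14 genes). Among them were 51 subunits, 21 paralogs of subunits whose symbols end in L, L1 or L2, and the assembly factor Sdhaf3. SdhA, UQCR-C1, UQCR-C2 and the subunits encoded by mitochondrial DNA were not analysed here.

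Flies of the mixed yw/w1118 background were either kept on dietary restriction (DR), labelled dSir2 overexpression, or labelled p53 knockdown, which the study's methods describe as a dominant-negative Dmp53 (DN-Dmp53). Each transgene was driven by ELAV-GeneSwitch, a neuronal driver switched on by RU486 given from eclosion. Controls for each transgene were flies of the same genotype that received the diluent. No group received RU486 without a transgene, so the drug and the transgene cannot be told apart. The effect of dSir2 or DN-Dmp53 below means the difference between such flies and their controls. The yw/w1118 DR flies carried the ELAV-GeneSwitch and dSir2 insertions and received the diluent, so the dSir2 control flies served as the control for DR as well, and those DR and dSir2 comparisons share their control arrays. Canton-S flies, a wild-type strain, were on DR or were controls. DR food held less sucrose and yeast extract. The diet that the labels call normal was, per the study's text, the high-calorie food for the Canton-S controls, the dSir2 controls and the dSir2-labelled flies. The study's methods also describe the transgene flies, DN-Dmp53 included, as aged like its life span cohorts, which were kept on regular cornmeal food. Each array held RNA of at least 75 pooled females, so the 3 arrays of a group measure the spread between pools. Fewer cells of a type and less RNA per cell cannot be told apart in such whole-body samples.

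Oxidative phosphorylation takes place at the inner mitochondrial membrane, where complex I takes electrons from NADH and complex II from succinate, complex III passes them to cytochrome c, and complex IV hands them to oxygen. The proton gradient that builds up drives complex V, the ATP synthase. Flight muscle is known as a tissue dense in mitochondria, and reduced expression of respiratory chain genes with age and their response to diet are recurrent questions in the fly. Most subunits are encoded in the nucleus, and many have a paralog with testis-biased expression.

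Values were log2 signals between a floor of 2.11 and 16.2. A gene was tested with limma where its mean in at least 1 group compared was over the 25th percentile of that group's means, which lies at the floor, and it passed at a Benjamini-Hochberg adjusted p under 0.05 over all probesets tested. Of the 73 members, 49 had a mean above 10 over the 42 arrays, and 10 paralogs lay within 0.01 of the floor on all arrays. Another 9 paralogs never reached 4, and only COX7AL2 and ATPsynepsilonL went higher. ATPsynepsilonL read 4.11 on 1 Canton-S DR array at day 40 and 2.16 to 2.66 on the other 41 arrays. Between 56 and 62 members were therefore tested in a comparison, and the untested ones were nearly all paralogs at or near the floor. Tested members still included paralogs at or near the floor, among them SdhAL, SdhBL and UQCR-11L in some comparisons, and UQCR-11, a subunit with a mean of 2.78. Such members count in the totals given per complex, although a change in them could hardly be read.

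The genes named in the labels were read first. Sirt1, the current symbol of dSir2, read 11.80, 11.63 and 11.65 in flies labelled dSir2 overexpression at day 10, against 11.99, 11.71 and 12.04 in dSir2 control flies (log2 change -0.22, limma adjusted p = 0.232). At day 40 it read 11.44, 11.38 and 11.43 in the labelled flies and 11.42, 11.50 and 11.21 in controls (0.04, limma adjusted p = 0.943), so a higher whole-body level was not seen. p53 differed by 0.23 at day 10 and 0.22 at day 40 in DN-Dmp53 flies over controls (limma adjusted p = 0.223 and 0.304). In 5 arrays, 4 or more of 18 testis and male-organ genes read over the floor by more than 0.5. They were DN-Dmp53 replicates 1 and 3, Canton-S DR replicate 3 and Canton-S control replicates 2 and 3, all of day 40, so the day 40 counts that use them are also given without them, a choice made after seeing the data. No paralog other than COX7AL2 read over the floor by that much on those 5 arrays.

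**Figure D1:**
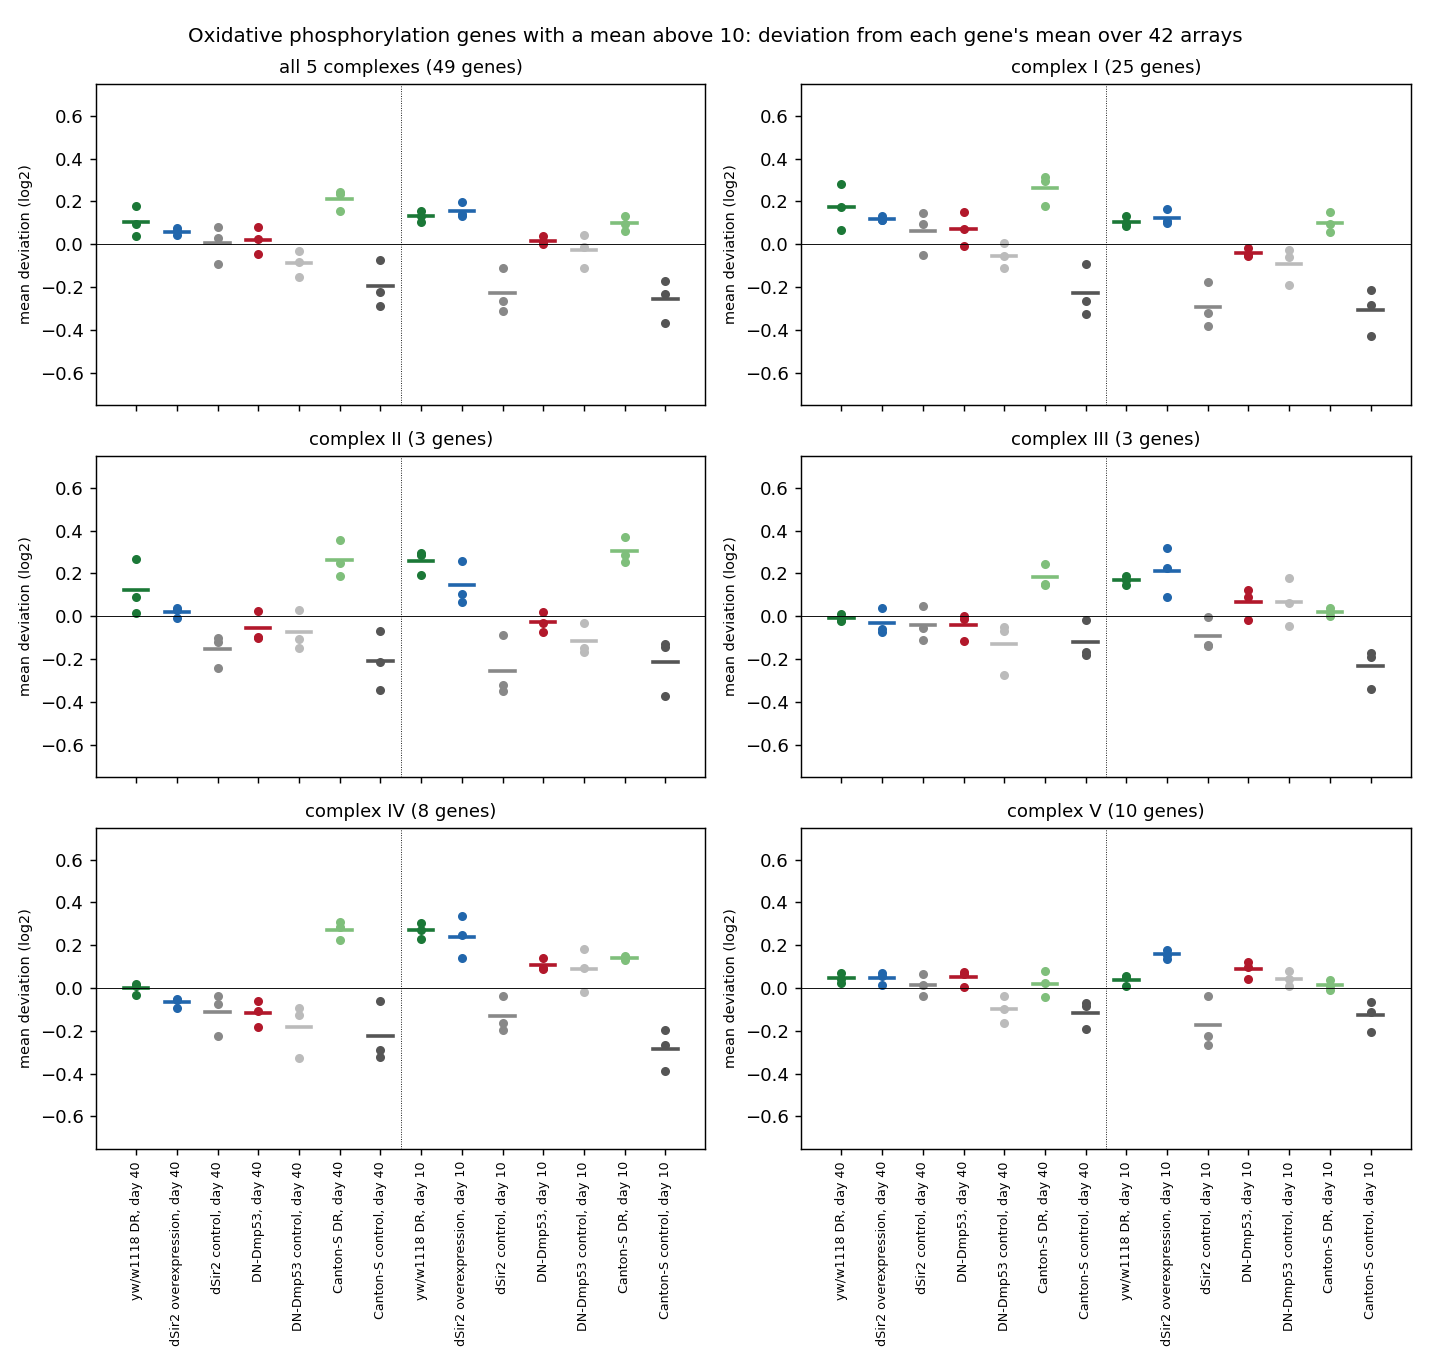
Mean deviation (log2) of the members with a mean above 10 from each gene's own mean over 42 arrays, by group, for all 49 genes and for each complex. Points are arrays and bars are group means, with day 40 left of the dotted line and day 10 right of it. The dSir2 control and Canton-S control groups of day 10 lie lowest at -0.23 and -0.26.

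At day 10, DR raised the oxidative phosphorylation genes in both backgrounds by small amounts. Over the 49 members with a mean above 10, the mean deviation from each gene's average was 0.16, 0.13 and 0.10 on the yw/w1118 DR arrays, against -0.11, -0.26 and -0.31 on the control arrays. It was 0.09, 0.06 and 0.13 on the Canton-S DR arrays, against -0.23, -0.37 and -0.17 on the Canton-S control arrays. The groups did not overlap in either background.

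In yw/w1118 flies at day 10, 41 of 56 members tested rose with DR and 0 fell, where 24.9% of all genes tested rose and 33.9% fell. The median change of the members was 0.31, beside -0.01 over all genes and -0.14 over the other genes with a mean above 10. The changes were mostly under 1.5-fold, and 5 members rose by more than that, where 17.7% of all genes did. The count was 24 without DR replicate 1 and 26 without DR replicate 2.

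Complex I rose in 23 of 27 members tested, with a median change of 0.40. ND-B16.6, an accessory subunit, read 12.38, 12.29 and 12.32 in DR flies, against 11.73, 11.72 and 11.75 in controls (0.60, SE 0.03, limma adjusted p = 0.000647). ND-75, the iron-sulfur subunit that carries electrons onward from NADH, read 11.07, 10.96 and 11.01 in DR flies and 10.64, 10.38 and 10.24 in controls (0.59, SE 0.11, limma adjusted p = 0.0115). ND-51, the subunit that binds NADH, read 13.04, 13.07 and 13.01 in DR flies and 12.55, 12.48 and 12.37 in controls (0.57, limma adjusted p = 0.00169). In each of these genes all DR arrays lay above all control arrays. Such separation was part of the rule for naming genes, so it is not further support.

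Complex II joins the citric acid cycle to the chain. Its membrane anchor SdhC read 12.66, 12.70 and 12.66 in yw/w1118 DR flies, against 12.23, 12.01 and 11.91 in controls (0.63, SE 0.09, limma adjusted p = 0.00445). Its iron-sulfur subunit SdhB read 12.22, 12.21 and 12.06 in DR flies and 11.91, 11.50 and 11.44 in controls (0.55, limma adjusted p = 0.03). SdhD, the other anchor, rose too, so that 3 of 4 members of complex II tested passed. Sdhaf3, which helps to assemble SdhB, was the remaining one, at -0.39, and did not pass.

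In complex III, UQCR-14 rose by 0.46 (limma adjusted p = 0.00677) and UQCR-6.4 by 0.24 (limma adjusted p = 0.0177), and the other 3 of 5 members tested did not pass (median 0.20). In complex IV, 7 of 9 members tested rose, with a median change of 0.30. COX7AL2, a paralog of COX7A, had the largest rise of all members, at 12.64, 12.54 and 12.70 in DR flies against 11.62, 11.31 and 11.33 in controls (1.21, SE 0.10, limma adjusted p = 0.00141). Complex V rose in 6 of 11 members tested, with a median of 0.22, among them the peripheral stalk subunits ATPsynB (0.32) and ATPsynD (0.31). Members of complex I mostly read 10 to 13 and those of complexes IV and V above 13, so the complex and the signal level cannot be told apart, and the complexes were not tested against each other. Over all members, the median was 0.41 for means of 10 to 13 and 0.27 above 13, beside -0.15 and 0.06 in other genes of the same ranges.

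In Canton-S flies at day 10, 37 of 59 members tested rose with DR and 1 fell, where 23.8% of all genes tested rose and 32.8% fell. The median change was 0.29, beside 0.00 over all genes, and 8 members rose by more than 1.5-fold, where 17.1% of all genes did. The count that passed was 25 without Canton-S control replicate 1 and 24 without DR replicate 1. Complex I rose in 22 of 28 members tested (median 0.40), complex II in 3 of 5, complex III in 3 of 5, complex IV in 7 of 9 (median 0.24) and complex V in 2 of 12 (median 0.11). The 3 of complex III include UQCR-Q (0.14, limma adjusted p = 0.0383). UQCR-Q read a near-constant 10.69 in these DR flies (SD 1.2e-06), and the cause was not tested.

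ND-20, an iron-sulfur core subunit of complex I, read 12.47, 12.49 and 12.64 in Canton-S DR flies, against 11.95, 11.61 and 11.93 in controls (0.70, SE 0.11, limma adjusted p = 0.00678). SdhD read 11.57, 11.53 and 11.81 in DR flies and 11.02, 10.86 and 11.08 in controls (0.65, limma adjusted p = 0.00607). COX7AL2 again rose most, at 11.76, 11.89 and 11.88 in DR flies against 10.32, 9.85 and 10.38 in controls (1.66, SE 0.16, limma adjusted p = 0.00162). None of these groups overlapped, which was part of the rule for naming genes. The 2 members of complex V that rose were ATPsynE (0.31, limma adjusted p = 0.0171) and ATPsynD (0.29, limma adjusted p = 0.0483). Sdhaf3 was the member that fell, at 8.84, 8.84 and 8.91 in DR flies against 9.77, 9.78 and 9.82 in controls (-0.93, SE 0.03, limma adjusted p = 0.000362). The effects of DR in Canton-S and yw/w1118 flies at day 10 differed by a median of 0.00 over the members, and with limma 0 of 60 members differed, where 2.8% and 2.81% of all genes tested did upward and downward. At an unadjusted p under 0.05, 10 members did, and 1 and 3 passed without Canton-S control replicate 2 or dSir2 control replicate 1.

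At day 40, most of complex I rose with DR in Canton-S flies, while no member passed in yw/w1118 flies. The Canton-S counts were 36 of 61 members tested higher with DR and 0 lower, where 17.5% of all genes tested rose and 20.3% fell, and the median change was 0.34 beside 0.00 over all genes. Among these Canton-S members 10 rose by more than 1.5-fold, where 13% of all genes did. In yw/w1118 flies with limma 0 of 59 members passed, where 0.0725% of all genes tested rose and 0.0518% fell. There 5 members had an unadjusted p under 0.05, the methods' t-test called 0 after adjustment, and a single fit over all 14 groups called 4. The median change in yw/w1118 flies was 0.05, with 44 of 59 members positive.

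In Canton-S flies complex I rose in 21 of 27 members tested (median 0.47), complex II in 2 of 6, complex III in 2 of 5, complex IV in 6 of 11 and complex V in 5 of 12. The 6 of complex II include SdhAL and SdhBL, which both read 2.11 in DR and control flies. ND-B16.6 read 12.60, 12.40 and 12.44 in Canton-S DR flies, against 11.87, 11.67 and 11.75 in controls (0.72, SE 0.08, limma adjusted p = 0.00573). SdhB read 12.24, 12.24 and 12.37 in DR flies and 11.59, 11.58 and 11.74 in controls (0.65, SE 0.06, limma adjusted p = 0.00465). ATPsynB read 13.81, 13.68 and 13.76 in DR flies and 13.35, 13.35 and 13.43 in controls (0.38, SE 0.05, limma adjusted p = 0.0068). All DR arrays of these genes lay above all control arrays, which was part of how genes were named. COX7AL2 rose by 1.86 (limma adjusted p = 0.00621), and COX5B, a nuclear subunit of complex IV, by 0.45 (limma adjusted p = 0.0199). Among these 6 arrays are 3 that read testis genes. Leaving them out keeps 1 control and 2 DR arrays, so a call lost there says nothing about those 3 arrays. There 0 members passed, the median was 0.23, and the changes were 0.63 for ND-B16.6, 0.65 for SdhB, 0.40 for ATPsynB, 1.54 for COX7AL2 and 0.31 for COX5B. The count was 21 without the filter on absent genes, 9 without control replicate 3, 15 without control replicate 2, and 20, 22 and 18 without DR replicates 1, 2 and 3.

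The effect of DR at day 40 was larger in Canton-S than in yw/w1118 flies in 6 of 62 members tested and smaller in 0, where 2.02% and 3.26% of all genes tested were, with a median difference of 0.29. The 6 were ATPsynB, ATPsynE, COX7A, COX7AL2, ND-42 and SdhB. For SdhB the difference was 0.39 (limma adjusted p = 0.0469), and for ND-42, an accessory subunit of complex I, it was 0.45 (limma adjusted p = 0.0461). Without the testis-reading arrays, which leaves 1 Canton-S control array, none of these 6 passed, 1 other member (UQCR-Q) did, and the median difference was 0.17. There the differences were 0.39 for SdhB and 0.49 for ND-42. UQCR-Q read a near-constant 10.69 at day 40 in dSir2 control (SD 0.00077) and yw/w1118 DR flies (SD 0.0), and the cause was not tested. The number that passed was 23 in a single fit over all 14 groups, 3 with each array centred on its own median, and 0 without the filter on absent genes. It was 0 without Canton-S control replicate 2 or 3, dSir2 control replicate 2 or 3, or yw/w1118 DR replicate 2, 1 without Canton-S DR replicate 1 or yw/w1118 DR replicate 1, and 2 without Canton-S DR replicate 3.

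The yw/w1118 DR day 10, Canton-S DR day 10 and Canton-S DR day 40 comparisons that gave calls do not share control arrays. Of the 63 members tested in at least 1 of them, 26 rose in all 3 (41.3%), 15 in 2, 6 in 1 and 16 in 0. Of the 10170 genes tested in at least 1 of them, 1075 rose in all 3 (10.6%). Those 26 were 17 members of complex I, 2 of complex II (SdhB and SdhD), 2 of complex III (UQCR-14 and UQCR-6.4), 4 of complex IV (COX4, COX5B, COX7A and COX7AL2) and ATPsynE of complex V. All 3 comparisons share the diet and the array normalization.

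**Figure D2:**
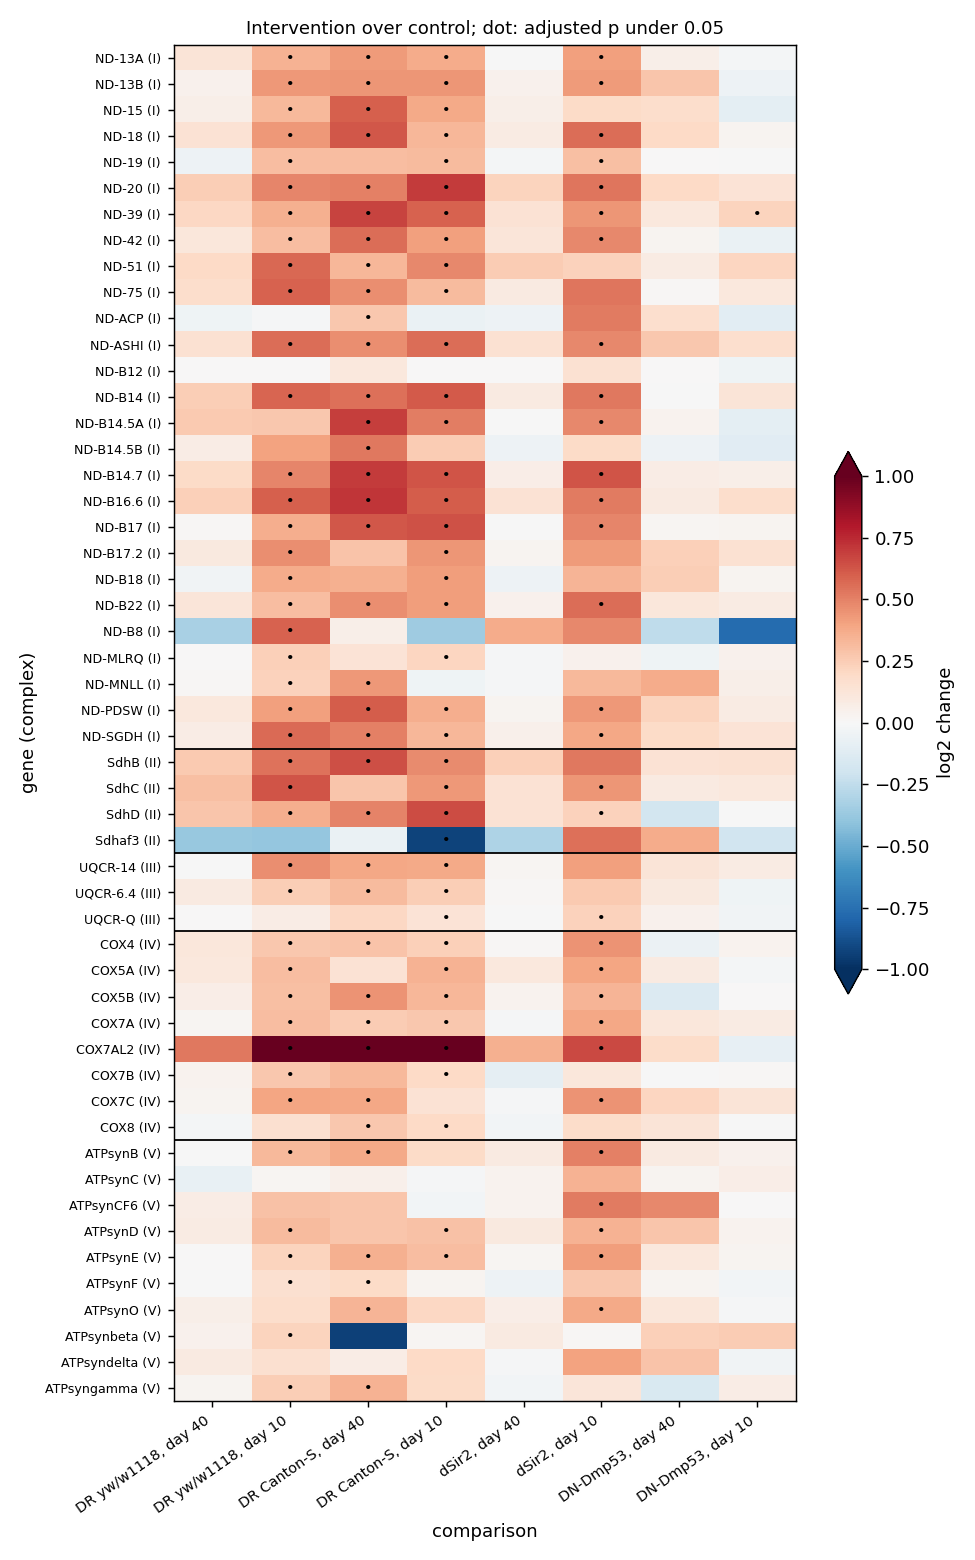
Log2 change of each of 52 members with a mean above 3 (rows, ordered by complex) in the intervention over control comparisons (columns), with day 40 left of day 10 for each intervention. Colours saturate at a change of 1 in either direction and dots mark an adjusted p under 0.05. Most of complex I is red and dotted in DR at day 10 of both backgrounds, in Canton-S DR at day 40 and in part in dSir2 at day 10.

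Flies labelled dSir2 overexpression also had higher readings of these genes at day 10. With limma 30 of 58 members tested rose and 0 fell, where 12.3% of all genes tested rose and 14.6% fell, and the median change was 0.40 beside 0.00 over all genes. By more than 1.5-fold 2 members rose, where 6.47% of all genes did. Complex I rose in 16 of 27 members tested (median 0.44), complex II in 2 of 4, complex III in 1 of 5, complex IV in 6 of 9 (median 0.39) and complex V in 5 of 13 (median 0.35). The count was 51 with each array centred on its own median, 17 without the filter on absent genes, 7 and 9 without dSir2 control replicates 2 and 3, and 12 and 11 without dSir2 overexpression replicates 1 and 2. The control arrays are those of the yw/w1118 DR comparison, and they were among the lowest of the series in these genes.

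ND-B22, an accessory subunit of complex I, read 12.97, 12.85 and 12.81 in dSir2-labelled flies, against 12.39, 12.33 and 12.23 in controls (0.56, SE 0.06, limma adjusted p = 0.00846). ND-B14.7 read 11.34, 11.19 and 11.23 in dSir2-labelled flies and 10.79, 10.60 and 10.47 in controls (0.63, SE 0.10, limma adjusted p = 0.0165). In complex V, ATPsynCF6 of the peripheral stalk read 13.86, 13.84 and 13.77 in dSir2-labelled flies and 13.51, 13.22 and 13.17 in controls (0.52, limma adjusted p = 0.0279). The groups did not overlap in any of these, which was part of the rule for naming genes. COX7AL2 rose by 0.66 (limma adjusted p = 0.0437), COX7C by 0.45 (limma adjusted p = 0.0167), SdhC by 0.44 (limma adjusted p = 0.0306) and UQCR-Q by 0.23 (limma adjusted p = 0.00752). UQCR-Q read a near-constant 10.69 in these controls (SD 0.0049), which makes its SE small, and the cause was not tested. SdhB and ND-75 were 0.52 and 0.53 higher in dSir2-labelled flies and did not pass (limma adjusted p = 0.14 and 0.114).

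At day 40 the median change in dSir2-labelled flies over controls was 0.02 over 61 members tested, and with limma 0 passed, as 0.0% of all genes tested did. The number at an unadjusted p under 0.05 was 5, and the methods' t-test called 0 after adjustment. The effect of dSir2 at day 40 was smaller than at day 10 in 9 of 62 members and larger in 0, where 3.12% and 3.66% of all genes tested were, with a median difference of -0.31. Among them was UQCR-Q, with an effect lower by 0.24 at day 40 (limma adjusted p = 0.00452), and COX4, with one lower by 0.43 (limma adjusted p = 0.0332). UQCR-Q read a near-constant 10.69 in controls of day 10 (SD 0.0049) and day 40 (SD 0.00077). It did so in dSir2-labelled flies of day 40 as well (SD 0.0039), so its small p rests on a very small spread. The count of 9 moved between 2 and 17 as single arrays were left out. It was 17 and 16 without dSir2 control replicate 1 of day 10 or of day 40, 16 without dSir2 overexpression replicate 3 of day 10, and 2 to 4 without any of the other 9 arrays. It was 18 with each array centred on its own median, 24 in a single fit over all 14 groups and 3 without the filter on absent genes.

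In DN-Dmp53 flies at day 10, 1 of 57 members passed, where 2.2% of all genes tested rose and 1.71% fell, and the median was 0.02. It was ND-39, an accessory subunit of complex I, at 12.15, 12.25 and 12.23 in DN-Dmp53 flies against 11.99, 11.98 and 11.98 in controls (0.23, SE 0.03, limma adjusted p = 0.0366). Same-numbered DN-Dmp53 and control arrays deviated together, and with the replicate number as a block 0 members passed. The count was also 0 when either of DN-Dmp53 replicates 2 and 3 or any of the control arrays was left out. At day 40 with limma 0 of 57 members passed, where 0.0104% of all genes tested rose and 0.0% fell, with a median of 0.09, 14 members at an unadjusted p under 0.05 and 0 by the methods' t-test after adjustment. A single fit over all 14 groups called 3, and 0 passed without the 2 DN-Dmp53 arrays that read testis genes, which leaves 1. The DN-Dmp53 effect differed between the ages in 0 of 58 members with limma, 6 at an unadjusted p under 0.05, where 1.29% and 0.893% of all genes tested were higher and lower, in 1 without control replicate 3 of day 10, and in 0 without the testis-reading arrays.

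**Figure D3:**
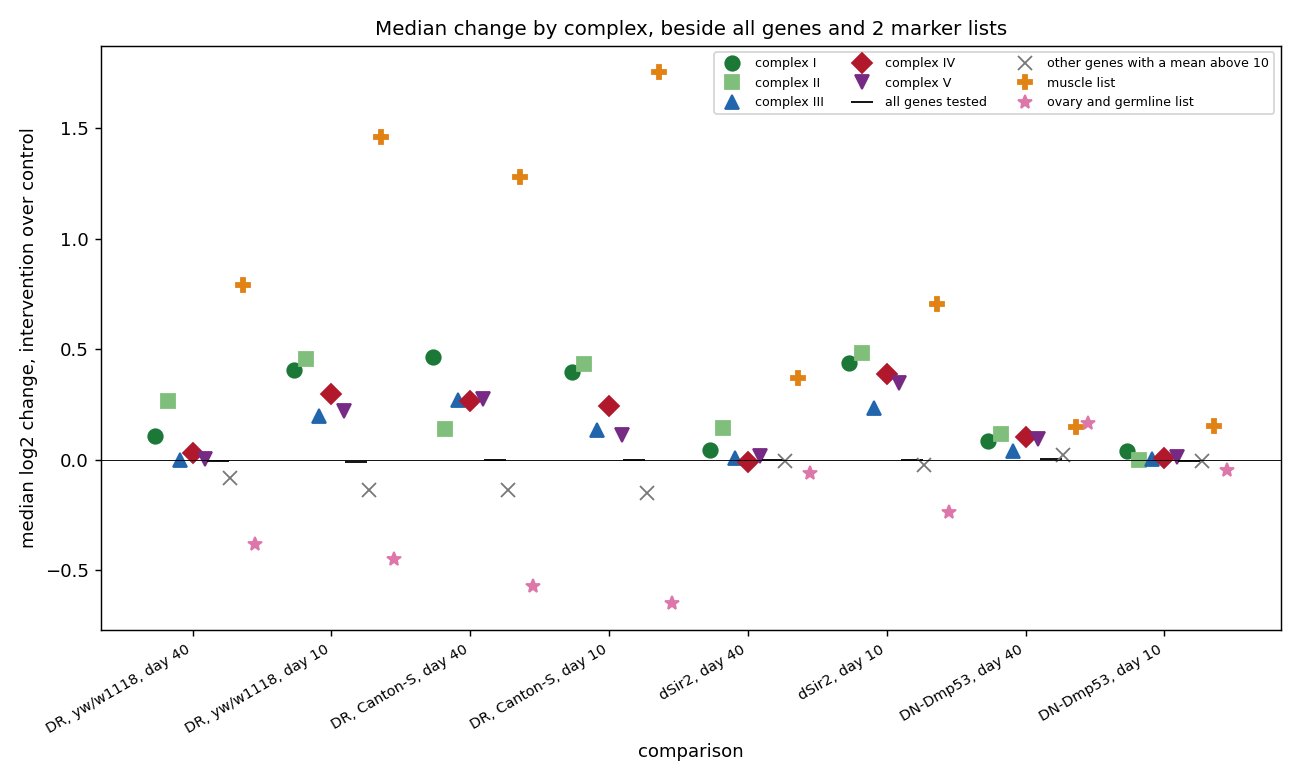
Median log2 change of intervention over control for each complex, beside all genes tested, other genes with a mean above 10, and the muscle and ovary marker lists, with day 40 left of day 10 for each intervention. The muscle list reached 1.46 and 1.75 in DR at day 10 and the ovary list was below 0 in each DR comparison.

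Muscle and ovary marker genes also changed in comparisons where members rose, and the lists of other tissues did so less evenly. Of 16 muscle genes 15 rose with DR at day 10 in yw/w1118 flies (median 1.46) and 15 in Canton-S flies (median 1.75), 11 in Canton-S flies at day 40 (median 1.28) and 11 in dSir2-labelled flies at day 10 (median 0.70). No muscle gene was at the floor. The log2 of the summed muscle level was 15.78 to 15.92 in yw/w1118 DR flies and 14.98 to 15.45 in dSir2-labelled flies at day 10, against 14.47 to 14.82 in their controls, and 15.47 to 15.60 in Canton-S DR flies against 13.68 to 14.08 in Canton-S controls. Ovary and germline genes moved the other way, with 15, 16, 11 and 6 of 20 lower and 1 higher in each of the same comparisons. Over all genes tested, 24.9%, 23.8%, 17.5% and 12.3% rose there and 33.9%, 32.8%, 20.3% and 14.6% fell. Of 9 midgut genes, 5, 5, 7 and 3 rose. Neuron genes rose in 8 of 11, 7 of 12, 3 of 10 and 1 of 11 cases, fat body genes in 4, 5, 2 and 3 of 9, and eggshell genes in 0, 0, 0 and 6 of 14. Falls among midgut, neuron, fat body and eggshell genes are not counted here. The mean deviation of the fat body list at day 10 was -0.46 in yw/w1118 DR and -0.24 in dSir2-labelled flies, against -0.34 in their controls. In Canton-S flies it was -0.42 with DR against -0.02 at day 10, and -0.10 against 0.13 at day 40. The log2 of the summed fat body level, unlike that mean, was higher with DR at day 10. It was 15.89 to 16.04 in yw/w1118 DR and 15.82 to 15.91 in dSir2-labelled flies, against 15.30 to 15.57 in their controls. For Canton-S flies it was 15.94 to 16.10 with DR against 15.65 to 15.68 at day 10, and 15.85 to 16.10 against 15.79 to 15.91 at day 40. In DR at day 40 in yw/w1118 flies, where 0 members passed, the muscle median was 0.79 and the ovary median -0.38, and 0 genes of either list passed. The part of tissue composition in the oxidative phosphorylation readings was not tested.

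Genes around the complexes did not all follow the subunits. Of 19 listed genes that lie outside the symbol rule, 8 were measured, which were 7 subunits and CIA30, an assembly factor of complex I. Of the 7 subunits, 5 rose with DR at day 10 in yw/w1118 flies, namely ox of complex III (0.60), its Rieske protein RFeSP (0.54), Cyt-c1 (0.42), cype of complex IV (0.42) and blw, the alpha subunit of the ATP synthase (0.24). In Canton-S flies 6 of the 7 rose at day 10 and 5 at day 40, and 4 in dSir2-labelled flies at day 10, while sun, the epsilon subunit of the ATP synthase, fell in Canton-S at day 10. CIA30 rose with DR in Canton-S flies at day 40 (0.34, limma adjusted p = 0.0268). Of 11 assembly factors measured, the member Sdhaf3 among them, 7 fell and 1 rose with DR at day 10 in yw/w1118 flies, and 5 fell and 2 rose in Canton-S. Surf1 (-0.59) and Coa7 (-0.48), both needed for complex IV assembly, fell in yw/w1118 DR flies at day 10 and also passed downward with DR in Canton-S at both ages and in dSir2-labelled flies at day 10, while the copper chaperone Cox17 (0.39) passed upward in those 4 comparisons. Citric acid cycle genes rose in 7 of 12 and fell in 1 in yw/w1118 DR flies at day 10, led by Ogdh at 0.86, and rose in 5 of 12 in Canton-S at day 10, 5 of 13 in Canton-S at day 40 and 1 of 12 in dSir2-labelled flies. Genes of mitochondrial biogenesis and mitochondrial DNA expression went both ways, with 3 of 14 up and 5 down in yw/w1118 DR flies at day 10, and carriers and uncoupling proteins did too, with 3 of 12 up and 2 down. Over all genes tested 24.9% rose and 33.9% fell in that comparison. These shares were 23.8% and 32.8% for DR in Canton-S flies at day 10, and 17.5% and 20.3% at day 40. They were 12.3% and 14.6% in dSir2-labelled flies at day 10, and the lists were not tested against these shares.

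Age was read as day 40 over day 10 within each of the 7 arms, whose arrays are also those of the comparisons above. In yw/w1118 dSir2 control flies 23 of 60 members rose by day 40 and 2 fell, where 20.4% of all genes tested rose and 30.1% fell, with a median of 0.21 beside -0.01 over all genes. Complex I rose in 17 of 27 members there (median 0.33), complex V in 4 of 13, complex IV in 2 of 11, and complexes II and III in 0. The same arm had 17 of 20 ovary genes lower (median -0.62), 7 of 9 midgut genes higher and 10 of 14 eggshell genes higher at day 40, and their part was not tested. The count was 10 without dSir2 control replicate 2 or 3 of day 10, and 14 and 11 without replicates 2 and 3 of day 40. Day 10 arrays of this arm were among the lowest of the series in these genes. The part of that low day 10 level in the rise was not tested.

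In dSir2-labelled flies 2 of 59 members rose by day 40 and 14 fell (median -0.09), where 13.1% of all genes tested rose and 17.7% fell. In yw/w1118 DR flies 2 of 57 rose and 7 fell (median 0.00, background 6.41% and 10.4%). With each array centred the split there was 4 and 4. In DN-Dmp53 flies 6 of 57 rose and 8 fell (median 0.00, background 12.3% and 12.4%), and without the arrays that read testis genes 0 rose and 2 fell. In DN-Dmp53 control flies 4 of 58 rose and 8 fell (median -0.03, background 15.3% and 19.2%), and with each array centred 8 rose and 7 fell. In Canton-S DR flies 10 of 60 rose and 1 fell (median 0.13, background 8.38% and 6.04%), and in Canton-S controls 0 rose and 1 fell (median 0.06, background 10.4% and 10.1%). Without the testis-reading arrays, which leaves 1 Canton-S control array at day 40, Canton-S DR had 4 that rose and 1 that fell, and Canton-S controls 1 and 1. In a single fit over all 14 groups 24 members passed in Canton-S DR, 4 in Canton-S controls and 33 in dSir2 controls. The arms were not tested against each other here.

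Single arrays moved these counts. The 9 of yw/w1118 DR were 5, 1 and 2 without replicates 1, 2 and 3 of day 10, and 15 and 4 without replicates 1 and 2 of day 40. The 16 of dSir2-labelled flies were 8 and 10 without replicates 1 and 2 of day 10 and 10 and 9 without replicates 1 and 2 of day 40. The 14 of DN-Dmp53 flies were 5 and 6 without replicates 1 and 2 of day 10 and 9 without replicate 1 or 3 of day 40. The 12 of DN-Dmp53 controls were 5 without replicate 1 or 2 of day 10 and 4 without replicate 2 of day 40. The 11 of Canton-S DR were 1, 2 and 6 without replicates 1, 2 and 3 of day 10 and 5 without replicate 3 of day 40, and the 1 of Canton-S controls was 0 without replicate 1 of day 10 and 2 without replicate 1 of day 40.

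**Figure D4:**
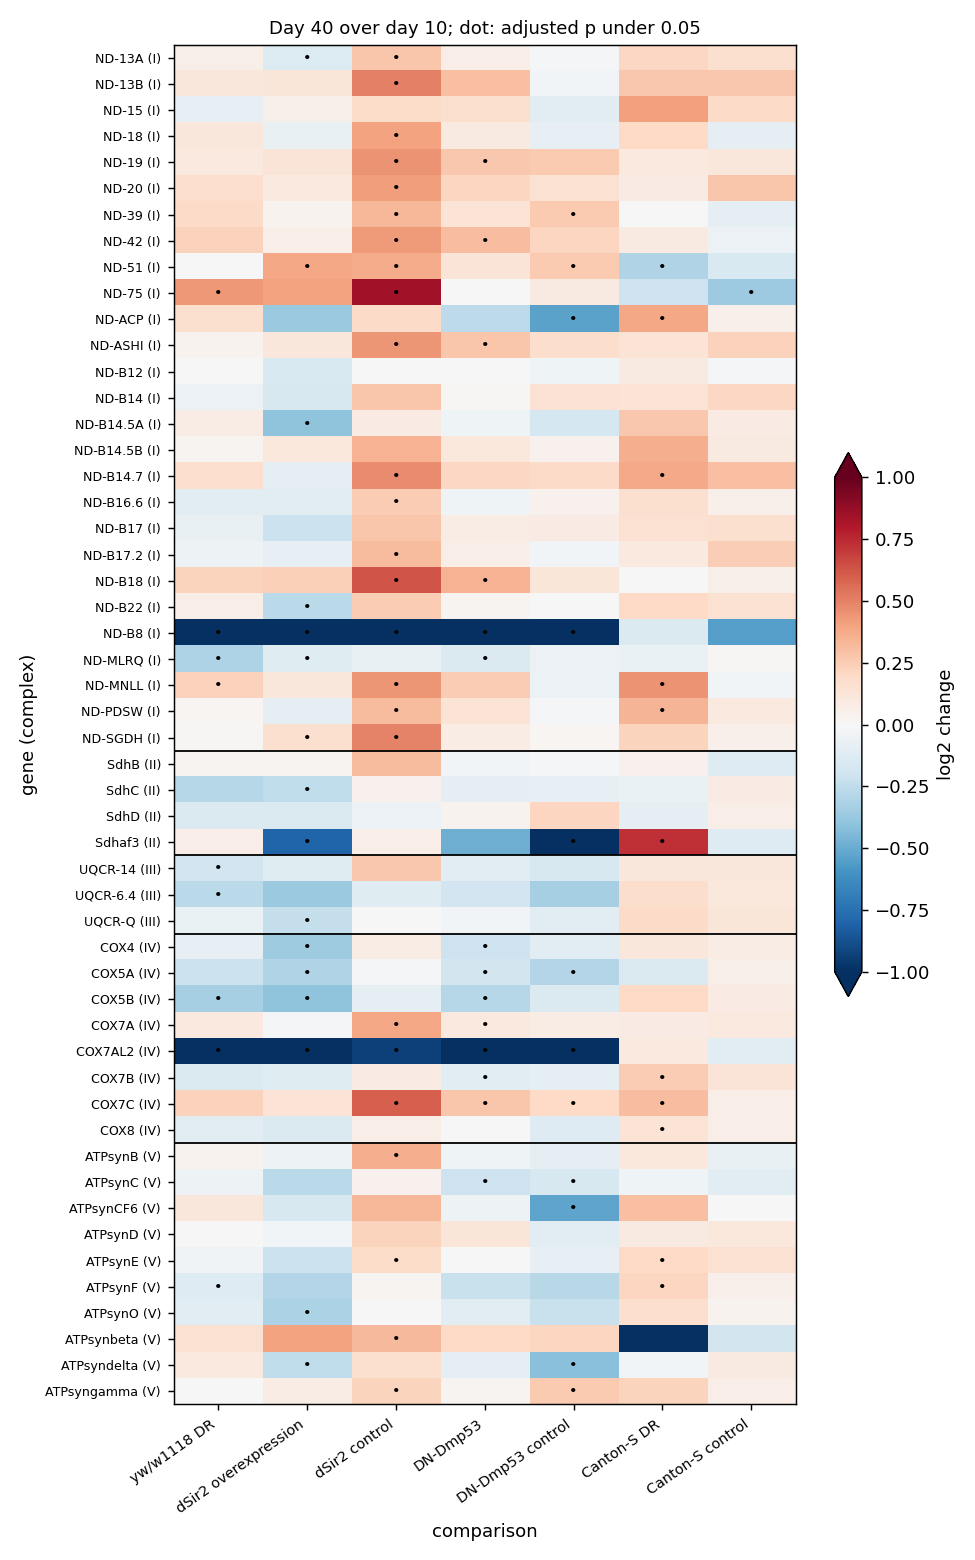
Log2 change, day 40 over day 10, of each of 52 members with a mean above 3 (rows, ordered by complex) in the 7 arms (columns). Colours saturate at a change of 1 in either direction and dots mark an adjusted p under 0.05. Complex I is dotted red mainly in dSir2 control flies, and ND-B8 and COX7AL2 are blue in each yw/w1118 arm.

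ND-B8, an accessory subunit of complex I with a low signal on this array, and COX7AL2 fell with age in all 5 yw/w1118 arms. ND-B8 read 3.58, 2.22 and 2.13 at day 40 in DN-Dmp53 control flies, against 6.14, 5.88 and 5.89 at day 10 (-3.33, limma adjusted p = 0.00822). Day 40 readings this close to the floor of 2.11 do not fix the size of the fall, so its changes are not set against each other. Its change was -2.79 in yw/w1118 DR, -1.99 in dSir2-labelled, -1.88 in dSir2 control and -2.81 in DN-Dmp53 flies (-2.87 with limma adjusted p = 0.103 without the testis-reading arrays). In Canton-S flies it was -0.14 on DR and -0.55 in controls, and neither passed. COX7AL2 read 11.20, 10.72 and 11.13 at day 40 in yw/w1118 DR flies, against 12.64, 12.54 and 12.70 at day 10 (-1.61, limma adjusted p = 0.0114). It was lower by 1.24 in dSir2-labelled, 0.93 in dSir2 control, 1.38 in DN-Dmp53 and 1.65 in DN-Dmp53 control flies. Its change in Canton-S was 0.09 on DR and -0.10 in controls, and the change with age was not tested between Canton-S and yw/w1118 arms.

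**Figure D5:**
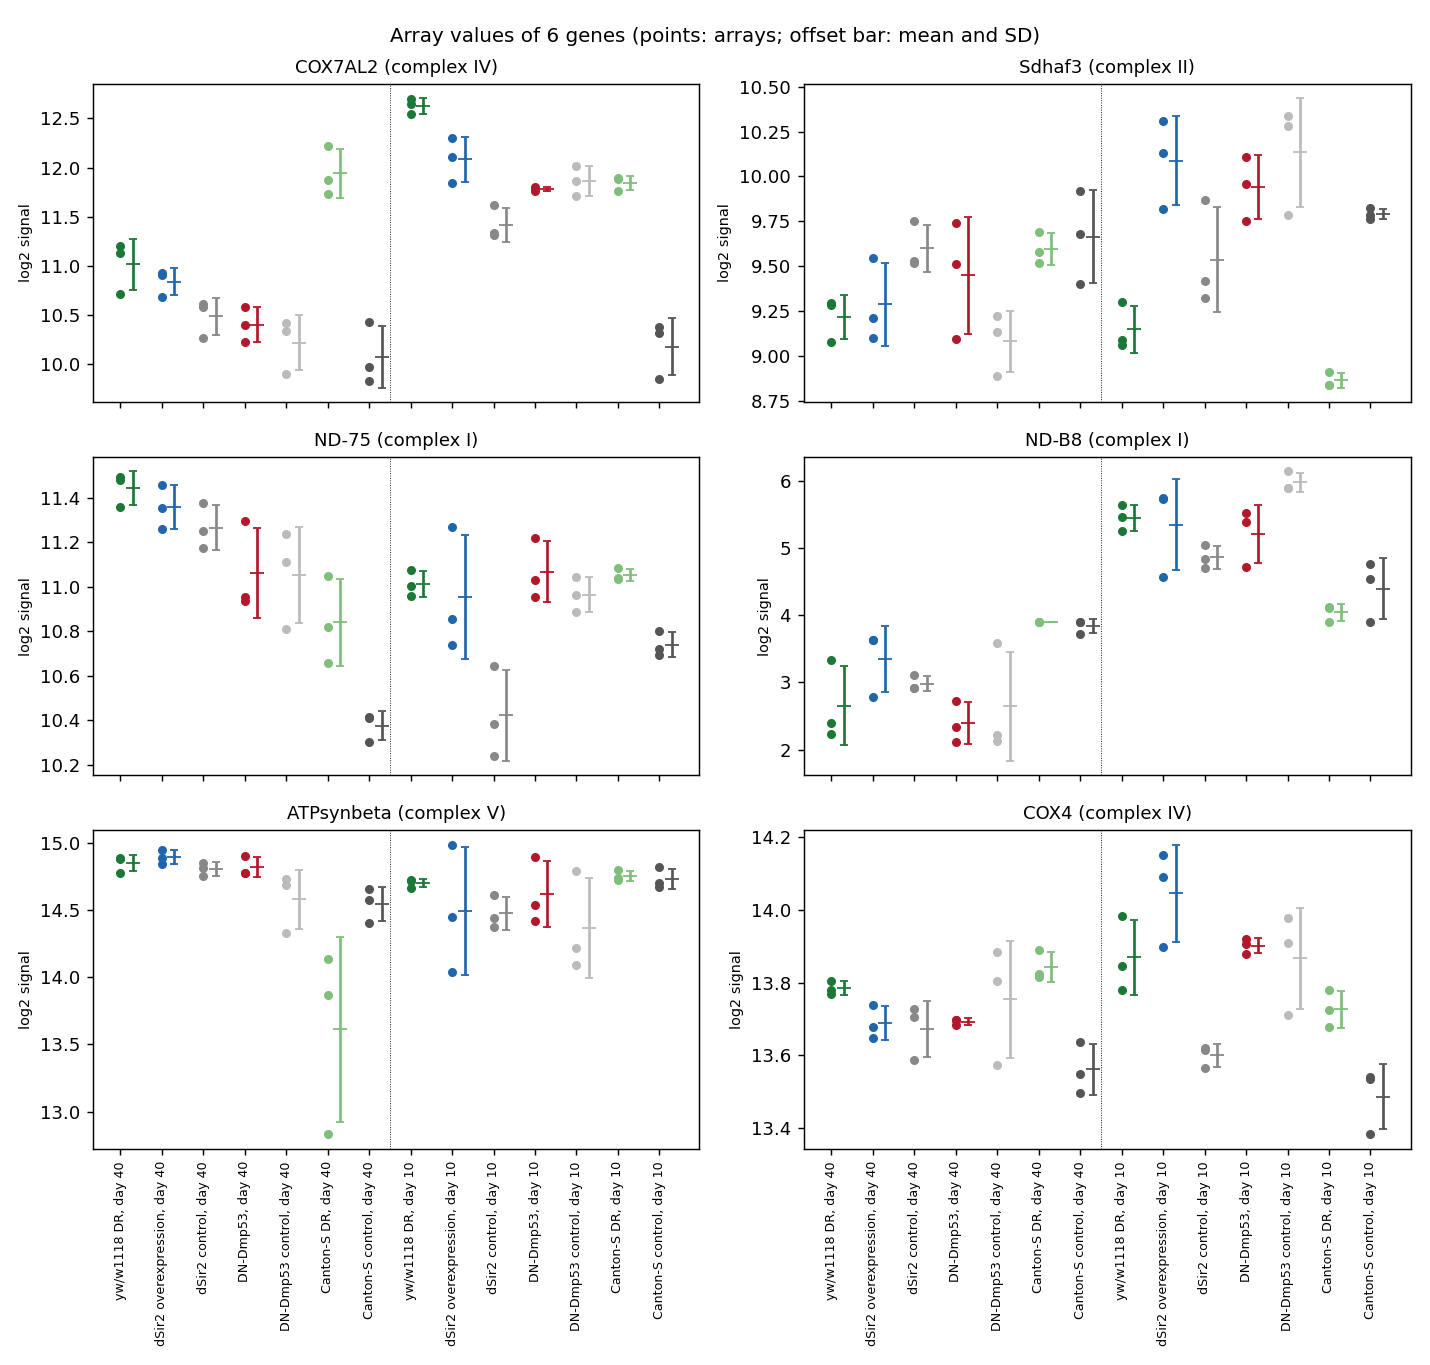
Log2 signal of 6 members on each array (points), with group mean and SD (offset bars, 3 arrays each), day 40 left of the dotted line and day 10 right of it. COX7AL2 reads 11.73 to 12.22 in Canton-S DR at day 40, above every other day 40 array.

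Single members also changed with age. ND-75 rose with age in dSir2 control flies, at 11.25, 11.17 and 11.38 at day 40 against 10.64, 10.38 and 10.24 at day 10 (0.84, limma adjusted p = 0.00596). It fell in Canton-S controls, at 10.30, 10.41 and 10.42 at day 40 against 10.72, 10.70 and 10.80 at day 10 (-0.36, limma adjusted p = 0.0147, and -0.44 with 0.0469 without the testis-reading arrays). COX7C rose with age in dSir2 control flies, at 13.71, 14.03 and 14.02 at day 40 against 13.36, 13.37 and 13.25 at day 10 (0.60, limma adjusted p = 0.0103). It also rose in Canton-S DR (0.31, and 0.30 without the testis-reading array) and DN-Dmp53 control flies (0.20). COX5B fell in dSir2-labelled flies, at 12.94, 12.88 and 12.98 at day 40 against 13.40, 13.30 and 13.30 at day 10 (-0.40, limma adjusted p = 0.00699), in yw/w1118 DR flies (-0.33) and in DN-Dmp53 flies (-0.28). In DN-Dmp53 flies it was -0.27 without the testis-reading arrays and did not pass (limma adjusted p = 0.112). Sdhaf3 fell with age in DN-Dmp53 control (-1.05) and dSir2-labelled flies (-0.80) and rose in Canton-S DR flies (0.73, and 0.77 without the testis-reading array), where its day 40 values of 9.69, 9.58 and 9.52 stood against 8.84, 8.84 and 8.91 at day 10.

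ATPsynbeta, the catalytic subunit of the ATP synthase, gave different readings by probeset. In Canton-S DR flies at day 40 it read 12.83, 13.87 and 14.14, against 14.58, 14.41 and 14.66 in Canton-S controls (-0.93, SE 0.37, limma adjusted p = 0.122, and 0.000592 in a single fit over all 14 groups). It was -1.22 without the testis-reading arrays. Its other probeset was higher by 0.19 in the same comparison (limma adjusted p = 0.0217). The Canton-S DR arrays of the first probeset were lower than all controls, and which of the probesets holds the gene's level was not tested.

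The effect of DR in yw/w1118 flies was smaller at day 40 than at day 10 in 3 of 60 members and larger in 0 (median -0.22, where 3.73% and 4.48% of all genes tested were), namely ND-51, ND-SGDH and UQCR-14. In Canton-S flies the effect of DR was larger at day 40 in 2 of 62 and smaller in 0 (median 0.07, where 5.04% and 5.77% were), namely ND-MNLL and Sdhaf3. For ND-51 the effect in yw/w1118 flies was lower by 0.37 at day 40 (limma adjusted p = 0.0204). The yw/w1118 count was 9 in a single fit over all 14 groups, 0, 1 and 5 without DR replicates 1, 2 and 3 of day 10, 5 without DR replicate 3 of day 40, 8 without dSir2 control replicate 1 of either day, and 1 without dSir2 control replicate 3 of day 40. The Canton-S count was 1 without DR replicate 1 or 2 or control replicate 1 of day 10 or control replicate 2 or 3 of day 40, 4 without control replicate 2 of day 10 or control replicate 1 of day 40, and 1 without the testis-reading arrays (Sdhaf3).

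At day 10 Canton-S controls were higher than yw/w1118 dSir2 controls in 2 of 59 members and lower in 2, where 8.25% of all genes tested were higher and 17.4% lower, and with each array centred 12 were higher and 1 lower. COX7AL2 was lower in Canton-S, at 10.32, 9.85 and 10.38 against 11.62, 11.31 and 11.33 in yw/w1118 (-1.24, limma adjusted p = 0.0125). At day 40, 1 of 61 was higher and 8 were lower in Canton-S, where 12.7% were higher and 11.1% lower, with a median of -0.11 and a complex I median of -0.26. ND-75 was lower in Canton-S, at 10.30, 10.41 and 10.42 against 11.25, 11.17 and 11.38 in yw/w1118 (-0.89, limma adjusted p = 0.00453), and ND-B8 was higher by 0.86 (limma adjusted p = 0.007). Without the Canton-S control arrays that read testis genes, which leaves 1, 0 were higher and 2 lower, and ND-75 (-0.96) and ND-B8 (0.92) did not pass. A single fit over all 14 groups called 23 at day 40. The day 10 count of 4 was 7 without dSir2 control replicate 1 and 2 without Canton-S control replicate 1 or dSir2 control replicate 2 or 3, and the day 40 count of 9 was 5 without Canton-S control replicate 2 or dSir2 control replicate 2 and 4 without dSir2 control replicate 3.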

How the data were processed

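RNA of whole female flies was hybridised to Affymetrix Drosophila 2.0 arrays. The deposited values are log2 signals that the authors made with GCRMA and quantile normalization. Its version is not given in the sources used. Of 18952 probesets, 183 were controls, 13647 name 1 gene, 402 name several and 4720 have no entry in the probe-gene table. A gene took the probeset naming it alone with the highest mean over 42 arrays, and each comparison was fitted on its own groups. The table's symbols come from the platform annotation, and all 73 members matched the RefSeq gene table. The precision is limited by 3 arrays a group. Per array, the correlation with its own group was 0.9955 to 0.9994.

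Tests used limma 3.58.1 (lmFit and eBayes, R 4.3.3). Summaries and plots were made in Python 3.11.15 (numpy 2.4.6, pandas 2.3.3, matplotlib 3.10.9). The tests were checked on simulated data with independent noise and planted changes larger than most read here. That check does not cover small changes. All p-values are two-sided. The study's own test was a t-test, here called the methods' t-test, run as an alternative. Genes named were up to 2 a complex and comparison with the largest change among those passing without overlap of arrays, those passing against the members' median, SdhB, ND-75, ND-51, COX4, COX5A, ATPsynbeta and ATPsyngamma, and examples from the other lists (outside subunits, assembly factors, citric acid cycle, biogenesis, carriers, and markers of muscle, ovary, eggshell, neurons, fat body, midgut and testis). Members and lists were chosen with earlier results of these data known. ATPsynB, COX7AL2, Sdhaf3, UQCR-Q and CIA30 beyond that rule were named after their values were seen. Same-numbered DN-Dmp53 and control arrays correlated in their deviations in every pair (0.61, 0.42 and 0.76 at day 10, 0.30, 0.28 and 0.20 at day 40), and no other comparison's pairs all did. Alternatives were another centring, no filter, the mean of a gene's probesets, a replicate block, a fit over all groups, a 1.5-fold threshold, arrays left out, and, chosen after seeing the data, leaving out the arrays that read testis genes and the medians under every setting.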

Additional observations from a re-analysis of the deposited data

Results flagged for a closer look

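The effects listed here differed between ages or backgrounds by the interaction term of limma. Of all genes tested, 3.12% had a lower dSir2 effect at day 40 and 3.73% a lower yw/w1118 DR effect. The Canton-S DR effect was higher at day 40 in 5.04%, and at that age it was above the yw/w1118 one in 2.02%. The members listed were not tested against these shares. As single arrays were left out, 2 to 17 members passed for dSir2 between ages and 0 to 9 for DR between backgrounds at day 40. For DR between ages, 0 to 8 passed with yw/w1118 and 1 to 4 with Canton-S. In dSir2-labelled flies the effect over controls was lower at day 40 than at day 10 for ATPsynE (-0.40, adjusted p = 0.0439), COX4 (-0.43), COX7A (-0.40), ND-13A (-0.41, adjusted p = 0.015), ND-39 (-0.30), ND-42 (-0.36), ND-B14.7 (-0.57), ND-SGDH (-0.34) and UQCR-Q (-0.24, adjusted p = 0.00452). The effect of DR in yw/w1118 flies was lower at day 40 for ND-51 (-0.37), ND-SGDH (-0.49) and UQCR-14 (-0.47). The 2 sets share the dSir2 control arrays of both ages. UQCR-Q read a near-constant 10.69 in those controls and in dSir2-labelled flies of day 40, so its small p rests on a very small spread. In Canton-S flies the effect of DR was higher at day 40 than at day 10 for ND-MNLL (0.48, limma adjusted p = 0.0266) and Sdhaf3 (0.86, limma adjusted p = 0.0132). At day 40 the effect of DR was higher in Canton-S than in yw/w1118 flies for ATPsynB (0.38), ATPsynE (0.35), COX7A (0.24), COX7AL2 (1.33, limma adjusted p = 0.0415), ND-42 (0.45) and SdhB (0.39).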

How the results depend on the processing

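Counts of members that passed moved with the settings, and in some comparisons so did their split into rises and falls. The causes were not tested. A single fit of all 14 groups gave 4 members for DR in yw/w1118 flies at day 40 (0 as reported), 0 for DN-Dmp53 at day 10 (1) and 3 at day 40 (0), 24 for age in Canton-S DR (11) and 4 in Canton-S controls (1), 23 between control backgrounds at day 40 (9), 9 for DR by age in yw/w1118 flies (3), 24 for dSir2 by age (9), 1 for DN-Dmp53 by age (0) and 23 for DR by background at day 40 (6).

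A fold over 1.5 left 5 members for DR in yw/w1118 flies at day 10, 9 and 10 for DR in Canton-S flies at days 10 and 40, 2 for dSir2 and 0 for DN-Dmp53 at day 10. For age it left 2 in yw/w1118 DR, 3 in dSir2-labelled, 5 in dSir2 control, 2 in DN-Dmp53, 3 in DN-Dmp53 control, 1 in Canton-S DR and 0 in Canton-S control flies. It left 1 and 2 between control backgrounds at days 10 and 40, 0 and 1 for DR by age in yw/w1118 and Canton-S flies, 0 for dSir2 by age and 1 for DR by background at day 40. The methods' t-test at its own threshold called 4 for DR in yw/w1118 flies at day 10, 9 and 7 in Canton-S flies at days 10 and 40, 1 for dSir2 and 0 for DN-Dmp53 at day 10. It called 2, 1, 5, 2, 3, 1 and 0 for age in the same order of arms as above, and 1 and 2 between control backgrounds. After Benjamini-Hochberg adjustment it called 35 for DR in yw/w1118 flies at day 10, 34 and 23 in Canton-S flies at days 10 and 40, and 18 for dSir2 at day 10.

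With each array centred on its own median, which shifts array medians by -0.12 for DR in yw/w1118 flies at day 10, -0.15 and -0.11 for DR in Canton-S flies at days 10 and 40, -0.12 for dSir2 at day 10, -0.12 for age in dSir2 control flies and -0.10 between control backgrounds at day 10, dSir2 at day 10 had 51 members, DN-Dmp53 at day 10 had 0, control backgrounds at day 10 had 13, dSir2 by age 18 and DR by background at day 40 had 3. The median of the members was then 0.43 for DR in yw/w1118 flies at day 10, 0.44 and 0.45 in Canton-S flies, 0.52 for dSir2 at day 10, -0.050 for age in dSir2-labelled, 0.32 in dSir2 control and 0.048 in DN-Dmp53 control flies, -0.39 for dSir2 by age and -0.021 for DN-Dmp53 by age. Without the filter on absent genes, which adds probesets to the adjustment, 21 passed for DR in Canton-S flies at day 40, 17 for dSir2 and 0 for DN-Dmp53 at day 10, 10, 7, 6 and 5 for age in dSir2-labelled, DN-Dmp53, DN-Dmp53 control and Canton-S DR flies, 3 for dSir2 by age and 0 for DR by background at day 40. Medians were then 0.20 for DR in Canton-S flies at day 10, and 0.00 and 0.082 for age in dSir2-labelled and dSir2 control flies. The mean of a gene's probesets gave 5 for DR by age in yw/w1118 flies and 15 for dSir2 by age, and under it the muscle gene Strn-Mlck changed sign with age in Canton-S controls (-0.41, against 0.62 by its highest probeset).

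With the replicate number as a block, dSir2 at day 10 had 13 members and DN-Dmp53 at day 10 had 0. For age the block left 0 in yw/w1118 DR, 5 in dSir2-labelled, 10 in dSir2 control, 5 in DN-Dmp53, 5 in DN-Dmp53 control and 0 in Canton-S DR flies. It left 2 and 3 between control backgrounds at days 10 and 40, 0 for DR by age in yw/w1118 flies, 3 for dSir2 by age, and 1 and 1 for DR by background at days 10 and 40. The other counts with the block were within 1.5 times the reported ones, and only the DN-Dmp53 numbers pair arrays. Without the arrays that read testis genes, a choice made after seeing the data, the counts were 0 for DR in Canton-S flies at day 40, 2, 5 and 2 for age in DN-Dmp53, Canton-S DR and Canton-S control flies, 2 between control backgrounds at day 40, 1 for DR by age in Canton-S flies and 1 for DR by background at day 40. Medians were then 0.23, 0.18 for age in Canton-S controls, -0.019 for DR by age in Canton-S flies and 0.17 for DR by background at day 40.

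With single arrays left out, the counts ranged over 24 to 45 for DR in yw/w1118 flies at day 10, 24 to 41 and 9 to 38 in Canton-S flies at days 10 and 40, 7 to 28 for dSir2 and 0 to 1 for DN-Dmp53 at day 10. For age they were 1 to 15 in yw/w1118 DR, 8 to 22 in dSir2-labelled, 10 to 30 in dSir2 control, 5 to 11 in DN-Dmp53, 4 to 12 in DN-Dmp53 control, 1 to 10 in Canton-S DR and 0 to 2 in Canton-S control flies. They were 2 to 7 and 4 to 11 between control backgrounds at days 10 and 40, 0 to 8 and 1 to 4 for DR by age in yw/w1118 and Canton-S flies, 2 to 17 for dSir2 by age, 0 to 1 for DN-Dmp53 by age, and 0 to 3 and 0 to 9 for DR by background at days 10 and 40. Medians ranged over -0.11 to -0.058 for age in dSir2-labelled flies and -0.38 to -0.27 for dSir2 by age. Signals at or near the floor leave most paralogs unmeasured, 3 arrays a group limit every count, and hybridisation to paralogous transcripts was not tested.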
